A study of Mus musculus with 24 samples.

Results

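The renin-angiotensin and corticosteroid action genes are 7 of the 54232 genes in the count table: Agt, Ace and Agtr1a of the renin-angiotensin system, and Nr3c1, Nr3c2, Hsd11b1 and Hsd11b2 of corticosteroid action. They were chosen by name and found by symbol through their Ensembl identifiers. Visceral adipose tissue of 24 C57BL6 mice, given as 10 weeks old and with no gene deletion, was sequenced, 6 mice in each of 4 groups. Control mice had a sham operation and a lentivirus carrying GFP (Lenti-GFP), NaKtide mice had a sham operation and a lentivirus carrying NaKtide, PNx mice had a partial nephrectomy (5/6 of the kidney mass) and Lenti-GFP, and PNx+NaKtide mice had the nephrectomy and the NaKtide lentivirus. NaKtide is a peptide made to block Src signaling through the Na,K-ATPase. The transgene was under the adiponectin promoter, chosen for its activity in adipocytes, and the virus was injected into the abdomen.

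In the renin-angiotensin system, Agt encodes angiotensinogen, which renin cuts to angiotensin I. Angiotensin-converting enzyme, encoded by Ace, makes angiotensin II from it, and the type 1a receptor, encoded by Agtr1a, carries most of its effects in mice. Adipocytes are a known source of angiotensinogen outside the liver. Ace has a somatic form and a shorter form made in male germ cells from a start site inside the gene. Corticosteroids act in adipose tissue through the glucocorticoid receptor (Nr3c1) and the mineralocorticoid receptor (Nr3c2). The enzyme encoded by Hsd11b1 regenerates active glucocorticoid inside the cell with NADPH supplied by H6pd, and the enzyme encoded by Hsd11b2 inactivates it.

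In GRCm38 coordinates, Ace (ENSMUSG00000020681) lies on the plus strand of chromosome 11 from 105967945 to 105989964 and Agt (ENSMUSG00000031980) on the minus strand of chromosome 8 from 124556534 to 124569706. Nr3c2 (ENSMUSG00000031618, 76899442 to 77245012) and Hsd11b2 (ENSMUSG00000031891, 105518755 to 105523988) are on the plus strand of chromosome 8. Agtr1a (ENSMUSG00000049115) is on the plus strand of chromosome 13 from 30336441 to 30382867. Nr3c1 (ENSMUSG00000024431) is on the minus strand of chromosome 18 from 39410545 to 39519421, and Hsd11b1 (ENSMUSG00000016194) on the minus strand of chromosome 1 from 193221634 to 193264075. The 7 are protein-coding genes, and the counts were made over whole genes, so that starts and transcripts of a gene cannot be told apart.

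The RefSeq promoters of Ace, Agt and Hsd11b1 are given here on the GRCm38.p6 build, each 250 bases before and 50 bases after a start, written in the direction of the gene. Promoters were matched for 4 of the 7 genes, 5 promoters in all. The 2 starts of Ace are shown because its levels turn on 3 PNx libraries together, those with the highest testis germ cell markers, and Agt and Hsd11b1 because both turn on 1 PNx library. Capitals mark matches to TATAAA, the TATA box, or to TGAGGTCA, a cyclic AMP response element letter string described for the testis start of Ace, both searched on either strand.

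Ace somatic start, chr11:105967698-105967997, plus strand: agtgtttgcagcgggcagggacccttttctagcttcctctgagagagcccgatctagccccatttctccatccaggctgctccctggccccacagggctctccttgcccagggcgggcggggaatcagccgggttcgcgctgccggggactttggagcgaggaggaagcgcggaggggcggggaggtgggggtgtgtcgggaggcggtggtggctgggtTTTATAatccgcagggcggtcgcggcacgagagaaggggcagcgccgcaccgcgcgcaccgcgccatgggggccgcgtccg

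Ace internal start, chr11:105974939-105975238, plus strand: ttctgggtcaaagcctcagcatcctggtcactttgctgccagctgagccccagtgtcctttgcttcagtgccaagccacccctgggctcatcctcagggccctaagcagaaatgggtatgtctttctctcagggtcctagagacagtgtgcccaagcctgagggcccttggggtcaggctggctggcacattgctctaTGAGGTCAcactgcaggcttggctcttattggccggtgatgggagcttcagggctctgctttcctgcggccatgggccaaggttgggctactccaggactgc

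Agt, chr8:124569657-124569956, minus strand: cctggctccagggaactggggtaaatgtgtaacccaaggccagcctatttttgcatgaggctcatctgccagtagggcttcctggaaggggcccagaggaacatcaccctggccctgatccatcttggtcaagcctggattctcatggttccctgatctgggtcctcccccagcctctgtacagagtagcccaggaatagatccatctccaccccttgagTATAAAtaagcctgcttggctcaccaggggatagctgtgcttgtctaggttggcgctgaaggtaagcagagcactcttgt

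Hsd11b1, chr1:193242311-193242610, minus strand: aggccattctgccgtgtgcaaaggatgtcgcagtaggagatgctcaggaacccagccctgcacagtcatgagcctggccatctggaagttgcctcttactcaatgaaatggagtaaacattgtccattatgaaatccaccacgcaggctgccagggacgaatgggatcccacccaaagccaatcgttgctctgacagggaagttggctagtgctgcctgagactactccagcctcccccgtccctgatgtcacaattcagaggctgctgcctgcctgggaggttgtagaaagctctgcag

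TATAAA stood 30 bases before the start of Agt and, on the reverse strand, 31 bases before the somatic start of Ace, and 13.6% of the 32851 RefSeq promoters of the same length hold it. TGAGGTCA stood 52 bases before the internal start of Ace and is in 2.17% of all promoters. TGTTCT, a glucocorticoid response half-site, was in none of the windows of these genes and is in 19.0% of all promoters, and TGACGTCA, the full cyclic AMP response element, was also absent from them and is in 1.79%. TTGCNNAA, a C/EBP letter string, matched at 2 positions in the Nr3c2 window and in none of the other windows of these genes, and 10.8% of all promoters hold it. A match is a description of the letters.

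Libraries held 679250 to 2979505 counts. Levels are given as CPM, the counts of a gene relative to the TMM-scaled total of its library (TMM, trimmed mean of M-values), and 3 counts, below which a level is taken as not readable, correspond to 1.01 to 4.42 CPM across the libraries before TMM scaling. The strand setting of the counting was not given, while the library kit keeps strand. The mitochondrial gene mt-Nd6, alone among the mitochondrial mRNAs on the minus strand and singled out after its values were seen, had 67.6 times the counts per kb of the 12 mRNAs on the plus strand, which are the strongly expressed ones in tissues. Counting on the strand opposite to the mRNA gives such a pattern in a stranded library, so the value printed for a gene can be that of RNA from its opposite strand. Over the whole table, the 16.8% of genes with an exon overlap on the opposite strand held 79.9% of all counts. Under such counting a gene without a partner keeps only residual counts, and its level need not measure its mRNA. This residual case touches 5 of the 7 genes, which no exon of an opposite-strand gene overlaps. Ace shares 295 exon bases, 5.58% of its exons, with the antisense gene Gm11651, and Nr3c2 shares 247 with Gm10649, which had 6 counts in all libraries together. Under such counting, Ace mRNA over the shared bases would be counted for Gm11651, and the Ace value can be that of the opposite strand. Over its other exons the limit of residual counts holds for Ace too. This was not tested.

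Sums of marker gene lists for 13 cell types showed libraries that stood apart. The adipocyte marker sum was 8694 CPM in PNx replicate 6 and reached 6210 CPM in replicate 6 of NaKtide, against 132 to 1419 CPM in the other 22 libraries. For the testis germ cell markers PNx replicates 1, 2 and 3 had sums of 1414, 1300 and 1601 CPM, and no other library exceeded 1078 CPM. The genes of this list differed. In these 3 libraries together Prm1 had 1721 of its 3325 counts, Prm2 4331 of 9457, Tnp1 1536 of 3093 and Acrv1 136 of 171. Sycp3 had 989 of 5636 there and 1091 in PNx replicate 6, and was highest in NaKtide replicate 6 at 652 CPM, where the whole sum was 663 CPM. Epididymis marker sums were lowest in PNx replicate 1 (24 CPM) and in replicate 6 of NaKtide (35 CPM) and reached 2849 CPM elsewhere. Of the adipocyte genes that define the tissue, Adipoq, Plin1 and Fabp4 were detected in 24 of 24 libraries and Cidec and Lep in 23. In PNx replicates 1, 2 and 3 together Adipoq had 1086 counts and Fabp4 320, but Plin1 had 13, Cidec 16 and Lep 6. Of the kidney tubule markers Umod had 1 count in all, Slc12a1 12 and Kap 19, while Slc34a1 had 5626 counts over 23 libraries, 3843 of them in PNx replicates 1, 2 and 3. Slc34a1 reached at most 519 CPM, so the highest kidney tubule sums came from other genes of the list. The strand limit above holds for marker genes too, so a sum need not follow 1 cell type. In bulk tissue, fewer cells of a type and less RNA per cell cannot be told apart.

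Per length, Ace was the highest of the 7 genes, with a median of 18.0 FPKM (fragments per length and depth, as deposited) over the 24 libraries. Agt followed at 4.73 FPKM, then Nr3c1 at 0.486, Nr3c2 at 0.268, Hsd11b2 at 0.213, Hsd11b1 at 0.111 and Agtr1a at 0 FPKM. Ace was above Agt in 22 of 24 libraries and Agt above Nr3c1 in 23, while their ranges overlapped. The other neighbours were closer: Nr3c1 was above Nr3c2 in 18 libraries, Nr3c2 above Hsd11b2 in 13, Hsd11b2 above Hsd11b1 in 11 (below it in 9, equal in 4) and Hsd11b1 above Agtr1a in 11 (below it in 4, equal in 9). The order of the last 4 genes is not separated by the spread. Under the unknown strand setting, the order is that of counted values and need not be that of the mRNAs.

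**Figure D1:**
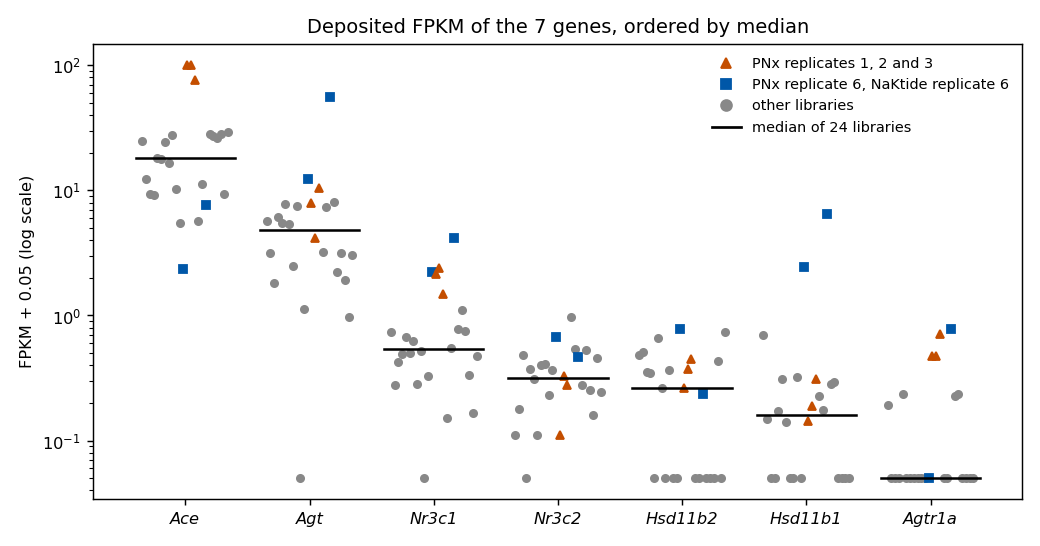
Deposited FPKM of each gene in the 24 libraries on a log axis after adding 0.05, with the median as a bar and genes ordered by it. Triangles are PNx replicates 1, 2 and 3, squares PNx replicate 6 and NaKtide replicate 6, circles the other libraries. Ace and Agt stand above the other 5 genes, with medians of 18.0 and 4.73 FPKM.

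PNx was compared with Control to ask how these genes respond to experimental renal failure. Agtr1a is left out of the counts and medians of tests, because it passed the filter of more than 10 counts in total through PNx, where it had 16 of its 20 counts. None of the other 6 passed a BH-adjusted p of 0.1 in edgeR's quasi-likelihood test, where 0.0766% of the 26116 genes tested did, all lower in PNx. At an unadjusted p under 0.05, 2 of the 6 did (Nr3c1 and Hsd11b1, both higher), where 25.4% of all genes did, 18.5% higher. Counts over the whole fit differed between tools: DESeq2 called 3 of the 6 (Ace, Nr3c1 and Agt, all higher, where it called 29.7% of all genes, 26.3% higher), and limma voom with sample weights called 2 (Ace and Nr3c1, both higher, where it called 63.8%, 32.7% higher). With DESeq2 size factors edgeR called 3 (Ace, Nr3c1 and Agt, all higher, where it called 33.3%, 30.5% higher). Genes without an adjusted p in DESeq2, Hsd11b1 among them, stay in its totals as not called. The median log2 fold change of the 6 was 1.18 in edgeR, 1.65 in DESeq2 and 0.061 in voom, and that of all genes tested was 0.36, 0.79 and -0.05. CPM ranges of PNx and Control overlapped for every one of the 7, and did not overlap for 0.486% of all genes.

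**Figure D2:**
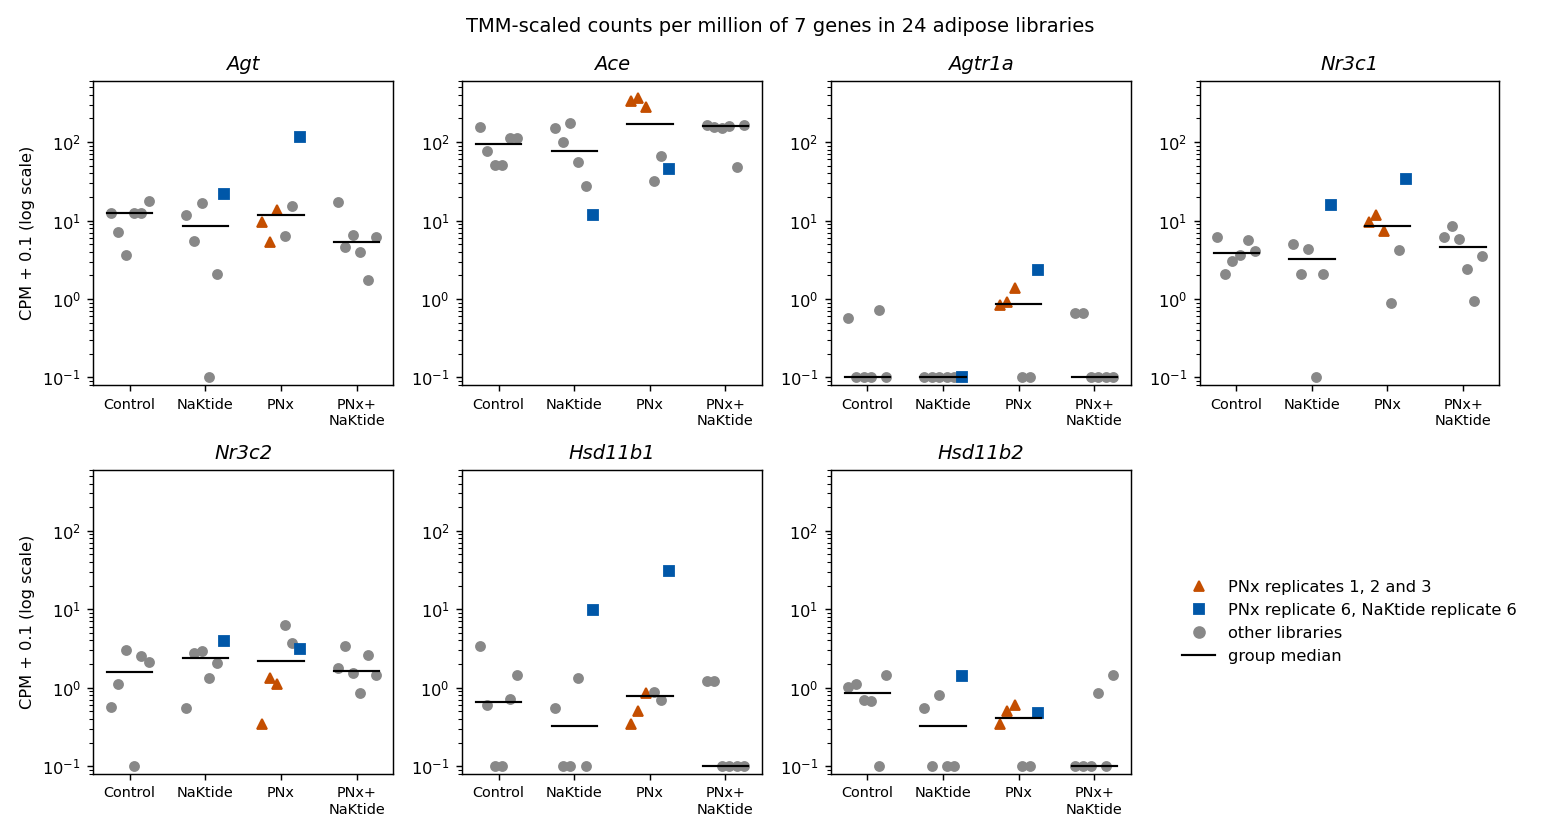
CPM with 0.1 added, on a log axis, of each gene in each library by group. Bars are group medians, triangles PNx replicates 1, 2 and 3, squares PNx replicate 6 and NaKtide replicate 6. The highest PNx libraries are replicates 1 to 3 for Ace and replicate 6 for Agt, Nr3c1 and Hsd11b1.

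Ace, the converting enzyme, was the most counted of the 7 with 6742 counts. These values are given as counted, under the strand limit above. Ace levels in PNx replicates 1, 2 and 3 were 333, 362 and 277 CPM, and in replicates 4, 5 and 6 they were 31.4, 65.9 and 44.9 CPM. Control libraries ran from 51.3 to 155 CPM with a median of 95.1. These first 3 PNx libraries were thus above every Control library, and PNx replicates 4 and 6 were below every one. The first 3 held 49.6% of all Ace counts and 19.1% of all counts in the table.

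The fold change of Ace in PNx was 0.99 ± 0.58 on the log2 scale (SE, n = 6 per group, edgeR adjusted p = 0.262). It was -1.0 ± 0.56 (adjusted p = 0.499) without PNx replicates 1, 2 and 3, a change of direction. Ace passed the threshold in DESeq2 (1.72 ± 0.63, adjusted p = 0.0361) and in voom (1.55 ± 0.46, adjusted p = 0.00676). Testis germ cell markers were high in the same 3 libraries, and Spearman's rho between Ace and their sum was 0.49 over 24 libraries, which share depth and scaling, and 0.41 over the 19 left without these 3, PNx replicate 6 and NaKtide replicate 6. Some other lists had a rho of larger size with Ace, among them endothelium (-0.80, and -0.62 over 19) and macrophage (-0.73 and -0.74). With the mesothelium sum rho was 0.48, and 0.82 over 19. The part of the cells of these lists in the Ace level was not tested.

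Gm11651, the antisense gene that overlaps Ace, runs on the minus strand from 105965608 to 105985694, so that it covers both starts of Ace. It had 54843 counts, 8.13 times those of Ace, and 35939 counts per kb of exon against 1275 for Ace. Its levels in PNx were 894, 1176, 765, 1058, 722 and 151 CPM in replicates 1 to 6, and Control libraries ran from 596 to 2827 CPM with a median of 1876. Every PNx library was below the Control median, and the groups overlapped. The log2 fold change was -1.10 ± 0.45 (edgeR adjusted p = 0.152), and voom called it (-0.85 ± 0.39, adjusted p = 0.0623). Whether the Ace or the Gm11651 value holds Ace mRNA was not tested.

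The ratio of Gm11651 to Ace counts had a median of 24.2 in Control, 13.7 in NaKtide, 3.30 in PNx and 10.9 in PNx+NaKtide. Ratios in PNx replicates 1, 2, 3 and 6 were 2.69, 3.25, 2.76 and 3.35, lower than in any other library, while PNx replicates 4 and 5 had 33.7 and 10.9. Control libraries ran from 5.27 to 46.3. The mean log2 ratio was 2.48 ± 1.48 in PNx and 4.08 ± 1.43 in Control (SD, n = 6 each), a difference of -1.60 with p = 0.0823 in a two-sided exact permutation test, and 0.273 after BH adjustment over the 4 group comparisons.

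**Figure D3:**
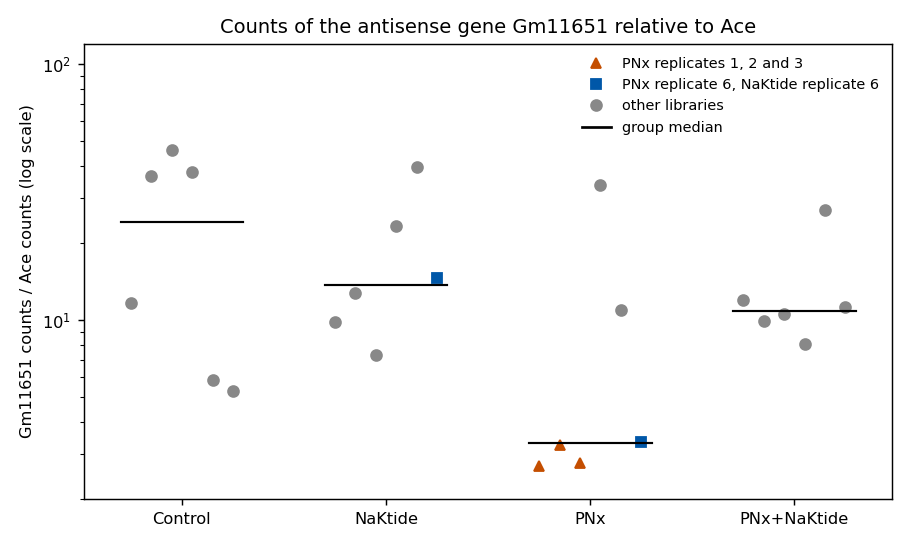
Counts of Gm11651 divided by counts of Ace in each library, on a log axis, by group, with the group median as a bar. PNx replicates 1, 2, 3 and 6 lie at 2.69 to 3.35, and all other libraries at 5.27 or above.

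Agt, the angiotensin precursor, stood at 9.36, 5.25, 13.6, 6.28, 15.4 and 117 CPM in PNx replicates 1 to 6. Control libraries ran from 3.55 to 17.4 CPM with a median of 12.3. PNx replicate 6 alone was outside the Control range and held 43.1% of all Agt counts, against 4.56% of all counts in the table. In edgeR the log2 fold change was 1.36 ± 0.73 (edgeR adjusted p = 0.228), and DESeq2 called it (1.58 ± 0.70, adjusted p = 0.0788). Without PNx replicate 6 it was -0.11 ± 0.60 (edgeR adjusted p = 0.908). NaKtide replicate 6 was next at 22 CPM, the other library with a high adipocyte marker sum, and with other marker sums high as well (given below).

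Agtr1a, the receptor, had 16 counts in PNx, 2 in Control, 2 in PNx+NaKtide and 0 in NaKtide. Its PNx levels were 0.739, 0.808, 1.26, 0, 0 and 2.26 CPM in replicates 1 to 6, and in Control 4 libraries were at 0 and the highest was at 0.617 CPM. The 4 PNx libraries with counts (replicates 1, 2, 3 and 6) were above all Control libraries, each from 6 or fewer counts. The ratio of pooled levels was 5.30. As Agtr1a passed the filter through PNx, this ratio is no evidence of a difference. These values are a description, and no test is given for them.

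Nr3c1, the glucocorticoid receptor, stood at 9.61, 11.7, 7.32, 0.785, 4.16 and 34.0 CPM in PNx replicates 1 to 6, and Control libraries ran from 2.00 to 6.03 CPM with a median of 3.76. PNx replicates 1, 2, 3 and 6 were above the Control range. Replicate 4 was below it, but from 1 count, which is under the 3 counts taken as readable. It had the lowest p of the 6 genes tested in this comparison, a log2 fold change of 1.49 ± 0.67 (unadjusted p = 0.0350, edgeR adjusted p = 0.174). DESeq2 gave 1.91 ± 0.68 (adjusted p = 0.0338) and voom 1.09 ± 0.47 (adjusted p = 0.050). Without PNx replicate 6 the edgeR value was 0.77 ± 0.63 (adjusted p = 0.382), and without PNx replicates 1, 2 and 3 it was 1.58 ± 0.75 (adjusted p = 0.445). Leaving out PNx replicate 4 gave 1.72 ± 0.63 (adjusted p = 0.0580) and replicate 5 gave 1.66 ± 0.68 (adjusted p = 0.0990), both past the threshold, where 33.2% and 23.2% of all genes passed it, against 0.0766% with all libraries.

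Nr3c2, the mineralocorticoid receptor, had 79 counts and stood between 0 and 6.28 CPM in all libraries. In PNx the highest were replicates 4, 5 and 6 at 6.28, 3.56 and 3.02 CPM, and replicates 1, 2 and 3 were at 0.246, 1.21 and 1.01 CPM. Control libraries ran from 0 to 2.96 CPM with a median of 1.5. The 3 highest PNx libraries were thus the 3 lowest for Ace. In PNx replicates 1, 2 and 3 these levels came from 1, 3 and 4 counts of Nr3c2, below or near the readable level. Its log2 fold change was 0.69 ± 0.70 (edgeR adjusted p = 0.519).

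Hsd11b1, which regenerates active glucocorticoid, stood at 30.6 CPM in PNx replicate 6 and at 0.246 to 0.785 CPM in PNx replicates 1 to 5. Control libraries ran from 0 to 3.25 CPM with a median of 0.559. PNx replicate 6 held 81 of the 120 counts, 67.5%. The next highest library was NaKtide replicate 6 at 9.70 CPM. The log2 fold change of 2.44 ± 1.18 (edgeR adjusted p = 0.195) became -0.81 ± 1.04 (adjusted p = 0.584) without PNx replicate 6, and DESeq2 gave no adjusted p. H6pd, which supplies its NADPH, was highest in the same libraries, reaching 103 and 58.2 CPM there.

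Hsd11b2, the inactivating enzyme, had 20 counts, 8 of them in Control and 5 in PNx, and no library was above 1.36 CPM. The ratio of pooled PNx to Control levels was 0.414 with a 95% exact interval for counting error of 0.107 to 1.44, so a difference was not detectable with these counts. Its log2 fold change was -1.18 ± 0.81 (edgeR adjusted p = 0.336).

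**Figure D4:**
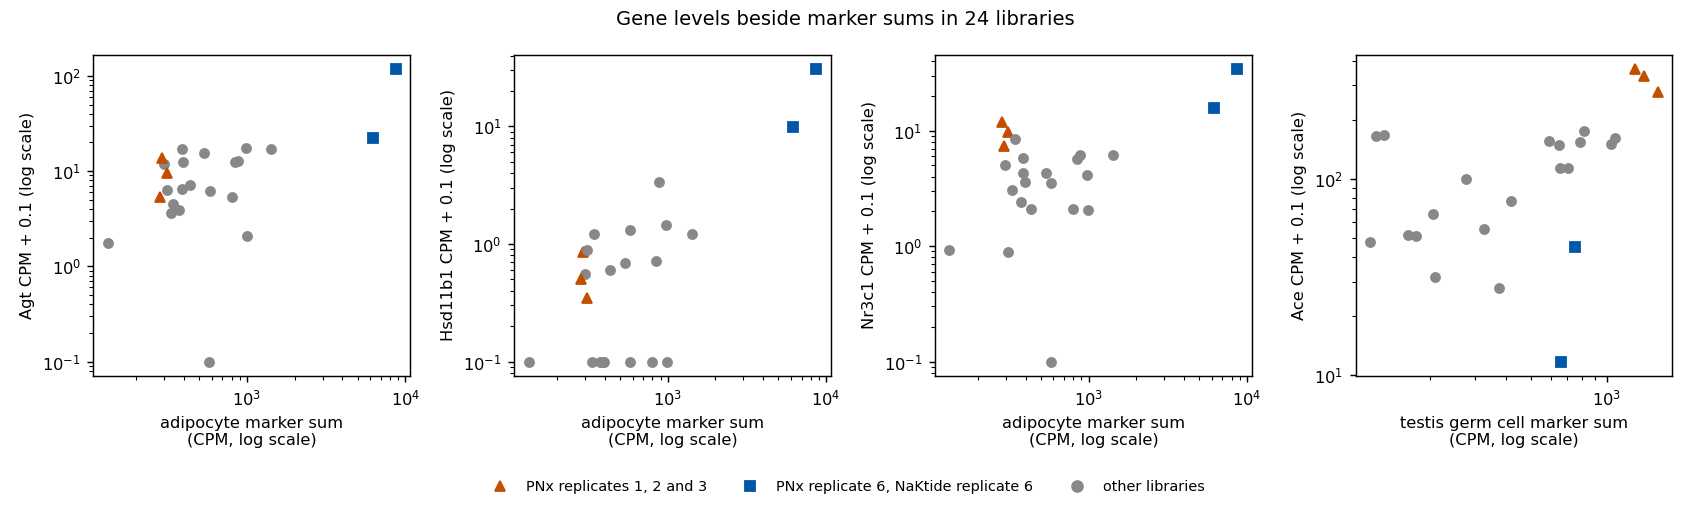
CPM of Agt, Hsd11b1 and Nr3c1 (0.1 added) against the summed CPM of the adipocyte markers, and of Ace against that of the testis germ cell markers, 1 point per library, log axes. PNx replicate 6 and NaKtide replicate 6 (squares) have the highest adipocyte sums, 8694 and 6210 CPM, and the 2 highest levels of Agt, Hsd11b1 and Nr3c1. PNx replicates 1, 2 and 3 (triangles) have the highest testis germ cell sums and Ace levels.

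Beside these values, PNx replicate 6 also had the highest sums of fibroblast and adipose progenitor (612 CPM), endothelium (962 CPM), erythrocyte (1629 CPM) and liver (1062 CPM) markers. NaKtide replicate 6 had the next highest of each (317, 595, 245 and 582 CPM) and the highest skeletal muscle sum (7070 CPM). Liver, like adipose tissue, makes angiotensinogen, and its defining marker Alb had 75 counts over all libraries, 37 of them in PNx replicate 6. Smooth muscle and pericyte sums ran from 133 to 912 CPM, macrophage sums from 182 to 601 CPM, mesothelium sums from 21 to 103 CPM, adrenal cortex and Leydig cell sums from 76 to 196 CPM and kidney tubule sums from 801 to 7896 CPM. The highest positive rho of Nr3c1 was with the fibroblast and adipose progenitor sum (0.81 over 24 libraries, 0.67 over 19), as for Agt (0.74 and 0.81). Nr3c1 had a rho larger in size, of opposite sign, with the kidney tubule sum (-0.89 and -0.81). Agt was close with the erythrocyte sum as well (0.72 and 0.71). With the adipocyte sum, rho was 0.46 for Agt (0.39 over 19), 0.42 for Hsd11b1 (0.33) and 0.10 for Nr3c1 (0.18). Hsd11b1 had a larger rho with the erythrocyte (0.59 and 0.52), fibroblast and adipose progenitor (0.50 and 0.38) and liver (0.50 and 0.47) sums. The part of the cells of these lists in the levels of the 7 genes was not tested.

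PNx+NaKtide was compared with PNx to ask whether adipocyte NaKtide changes the levels found after nephrectomy. This comparison uses the same PNx libraries as the one above. None of the 6 genes other than Agtr1a passed the adjusted threshold in edgeR, which called 0 of the 26116 genes. At an unadjusted p under 0.05, 2 of the 6 did (Agt and Hsd11b1, both lower), where 12.7% of all genes did, 8.60% lower. DESeq2 called 1 (Agt, lower, where it called 5.80% of all genes, 4.76% lower) and voom called 0 of the 6, where it called 44% of all genes, 19.9% lower. The median log2 fold change of the 6 was -0.86 in edgeR, -1.34 in DESeq2 and -0.65 in voom, and that of all genes was -0.37, -0.72 and 0.04. CPM ranges overlapped for all 7, and did not overlap for 0.456% of all genes.

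Agt stood at 17.2, 4.46, 6.43, 3.84, 1.66 and 6.11 CPM in PNx+NaKtide replicates 1 to 6. Of the 6 libraries, 3 lay below all PNx libraries and the others within the PNx range. The lowest, replicate 5, had 2 counts, too few to be readable. In edgeR the log2 fold change was -2.05 ± 0.76 (edgeR unadjusted p = 0.0114, adjusted p = 0.357), and DESeq2 called it (-2.19 ± 0.71, adjusted p = 0.0719). Without PNx replicate 6 it was -0.57 ± 0.61 (edgeR adjusted p = 0.572).

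Hsd11b1 was at 0 in 4 of the 6 PNx+NaKtide libraries and at 1.11 CPM in replicates 1 and 2, 4 counts in all against 88 in PNx. In edgeR the log2 fold change was -3.54 ± 1.33 (edgeR unadjusted p = 0.0130, adjusted p = 0.357). Without PNx replicate 6 it was -0.29 ± 1.2 (adjusted p = 0.895). That value is smaller than its standard error, so no direction can be read without the library with 81 counts, and the size rested on it.

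Ace was at 167, 154, 150, 162, 47.4 and 165 CPM in PNx+NaKtide replicates 1 to 6. These libraries, apart from replicate 5, lay between the 2 sets of PNx libraries. The log2 fold change was -0.40 ± 0.58 (edgeR adjusted p = 0.714), 1.58 ± 0.57 (adjusted p = 0.269) without PNx replicates 1, 2 and 3. Gm11651 itself ran from 1277 to 2000 CPM in PNx+NaKtide, above every PNx library, with a log2 fold change of 1.00 ± 0.44 (edgeR adjusted p = 0.373). The log2 ratio of Gm11651 to Ace counts differed by 1.11 (3.59 ± 0.60 in PNx+NaKtide, SD, n = 6) with p = 0.136 in the two-sided exact permutation test (adjusted p = 0.273).

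Nr3c1 ran from 0.832 to 8.36 CPM in PNx+NaKtide with a median of 4.55, within the PNx range in every library. The log2 fold change was -1.32 ± 0.67 (edgeR adjusted p = 0.407), and -0.60 ± 0.63 (adjusted p = 0.564) without PNx replicate 6. Agtr1a had 2 counts against 16, a ratio of pooled levels of 0.224. As above, this is a description with no test. Nr3c2 changed by -0.35 ± 0.69 and Hsd11b2 by 0.19 ± 0.96 on the log2 scale, less than their standard errors.

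**Figure D5:**
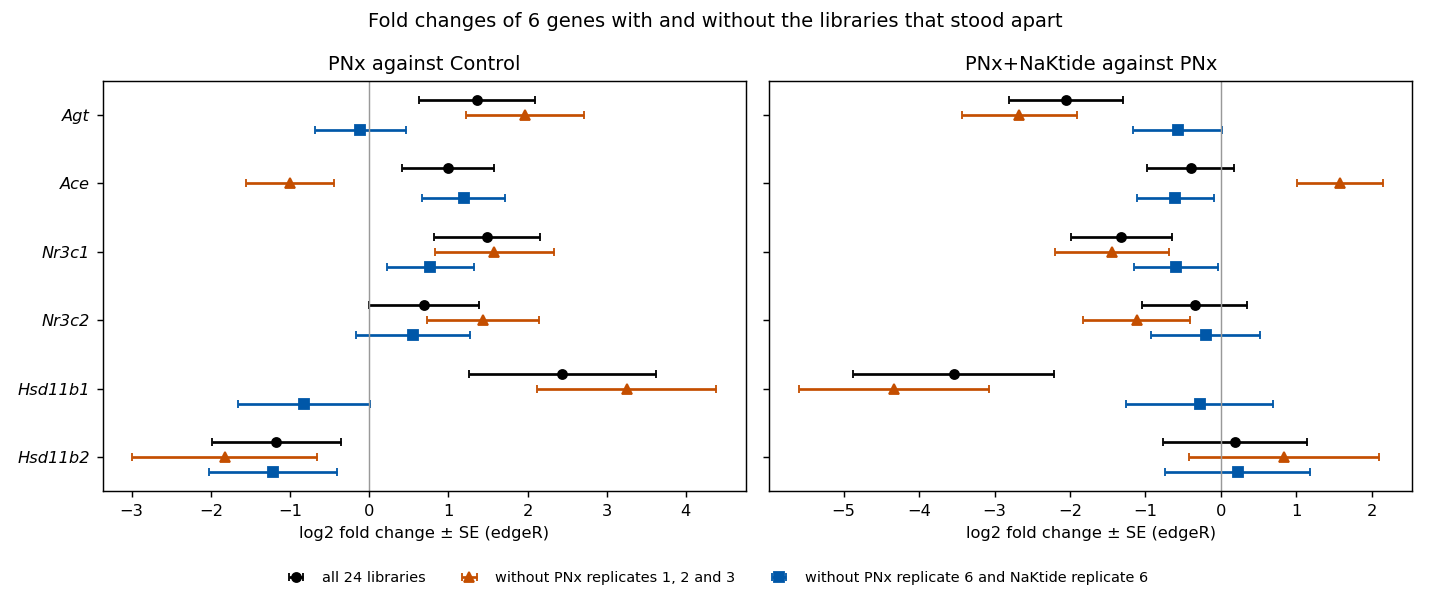
log2 fold changes of the 6 genes other than Agtr1a (points) with their standard errors (bars) from edgeR, with PNx against Control on the left and PNx+NaKtide against PNx on the right. Circles use all 24 libraries, triangles leave out PNx replicates 1, 2 and 3, and squares leave out PNx replicate 6 and NaKtide replicate 6. Ace changes sign without the triangles' libraries in both panels, and Agt and Hsd11b1 in PNx against Control without the squares' libraries.

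NaKtide against Control, PNx+NaKtide against NaKtide and the interaction of nephrectomy and NaKtide were tested in the same fit. None of the 6 genes other than Agtr1a was called in any of them by edgeR, DESeq2 or voom. edgeR called 0 genes of 26116 in each, DESeq2 0.0115%, 0.00766% and 0.360% of all genes, and voom 0.00766%, 0 and 25.5%. At an unadjusted p under 0.05 edgeR had 0, 0 and 1 of the 6, where it had 3.95%, 4.09% and 9.27% of all genes.

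In NaKtide, Ace ran from 11.6 to 176 CPM with a median of 77.9 and Agt from 0 to 22 CPM with a median of 8.51. For each of the 2 genes 1 NaKtide library was above and 2 were below the Control range. For Agt those below were replicates 4 and 5 with 0 and 1 counts, too few to be readable. Nr3c1 ran from 0 to 15.5 CPM and Hsd11b1 from 0 to 9.70 CPM, with NaKtide replicate 6 the highest for each. For these 6 genes, log2 fold changes in NaKtide against Control lay between -0.58 and 1.00, and in PNx+NaKtide against NaKtide between -2.11 and 0.69. Agtr1a had 0 counts in NaKtide, so no fold is given for it there. The interaction of Hsd11b1 was -4.54 ± 1.84 (unadjusted p = 0.0201, edgeR adjusted p = 0.494), and without PNx replicate 6 and NaKtide replicate 6 it was 1.2.

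The other genes of these pathways were followed as 5 lists with 89 different genes, of which 80 were tested. None was called by edgeR in any of the 5 comparisons, and at an unadjusted p under 0.05 it called 18.5% of all genes higher and 6.88% lower in PNx than in Control. Of the 20 other renin-angiotensin genes 16 were tested, and 2 were higher and 1 lower in PNx at an unadjusted p under 0.05. Their median log2 fold change was 0.10 in edgeR and 0.40 in DESeq2, against 0.36 and 0.79 for all genes. In voom it was -0.74, against -0.05, with 3 called higher and 7 lower, so the sign of the list median depends on the tool. Renin itself (Ren1) had 3 counts in all libraries together, and Agtr2 and Agtr1b had 1 each. These 3 genes are named for their place in the pathway.

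Thop1, a peptidase that makes angiotensin-(1-7), had 29.6, 18.6 and 33.6 CPM in PNx replicates 1 to 3, while Control lay between 1.5 and 6.96 CPM, with a log2 fold change of 1.90 ± 0.73 (edgeR adjusted p = 0.145). Ctsa, a carboxypeptidase, had 74.7, 293 and 187 CPM there, while Control lay between 862 and 1493 CPM (-0.58 ± 0.48, adjusted p = 0.424). Both stood apart in the libraries in which Ace was highest. Thop1 had 120, 46 and 133 counts in PNx replicates 1 to 3 and 1, 5 and 16 in replicates 4 to 6. Ctsa had 303, 725 and 742 counts, and then 2399, 2592 and 3448. Without PNx replicates 1, 2 and 3 the fold changes of Thop1 and Ctsa turned their direction. Rnpep, an aminopeptidase, was at 12.6 to 22.3 CPM in PNx and 7.69 to 16.1 CPM in Control (0.41 ± 0.36, adjusted p = 0.446). Ctsa shares 819 and Rnpep 368 exon bases with opposite-strand genes.

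Of the 22 receptor chaperones and cofactors, all tested, 1 was higher and 3 were lower in PNx at an unadjusted p under 0.05, and the median log2 fold change was -0.01 in edgeR, 0.45 in DESeq2 and -0.07 in voom. DESeq2 called 9 higher and 2 lower, and voom 4 higher and 8 lower. Fkbp5, a glucocorticoid-induced inhibitor of its receptor, ran from 4.44 to 45.7 CPM in PNx and from 35.2 to 84.0 CPM in Control (-1.17 ± 0.45, edgeR adjusted p = 0.146). Hsp90aa1, the chaperone that holds the receptors ready for hormone, had 246, 188 and 273 CPM in PNx replicates 1 to 3, while Control lay between 19.5 and 76.3 CPM (1.46 ± 0.58, adjusted p = 0.149). Its counts were 999, 466 and 1083 there and 20, 46 and 229 in PNx replicates 4 to 6. The fold change turned its direction without PNx replicates 1, 2 and 3. Ep300, a coactivator, was at 12.5 to 44 CPM in PNx and 33.3 to 49.0 CPM in Control (-0.77 ± 0.33, adjusted p = 0.160).

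Of the 11 genes of corticosteroid supply and clearance 8 were tested, with 1 higher and 0 lower at an unadjusted p under 0.05 and a median log2 fold change of 0.69. In voom the median was -0.46, with 0 called higher and 2 lower. Serpina6, the corticosteroid carrier of blood, had 0 counts. H6pd ran from 0.785 to 103 CPM in PNx and from 1.78 to 13 CPM in Control (1.81 ± 0.96, edgeR adjusted p = 0.227), and its value was -0.83 without PNx replicate 6. Srd5a2, a steroid reductase, was at 0.755 to 14.1 CPM in PNx and 4.94 to 14.0 CPM in Control (-1.03 ± 0.65, adjusted p = 0.295). Hsd17b10, a mitochondrial steroid dehydrogenase, was at 34.3 CPM in PNx replicate 6, at 1.48, 1.21 and 1.51 CPM in PNx replicates 1 to 3 and at 1.75 to 9.28 CPM in Control (0.95 ± 0.70, adjusted p = 0.364). Its value was -0.41 without PNx replicate 6.

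Of the 25 glucocorticoid response genes, all tested, 1 was higher and 1 lower in PNx at an unadjusted p under 0.05 (the lower is Fkbp5), with a median log2 fold change of 0.18. In voom the median was -0.69, with 4 called higher and 12 lower. Bcl6, a repressor of transcription, had the lowest adjusted p of the 5 lists. It was at 30.6, 28.3, 17.9, 6.28, 2.38 and 28.3 CPM in PNx replicates 1 to 6 and at 4.67 to 6.02 CPM in Control (1.85 ± 0.56, edgeR adjusted p = 0.128). Its 4 highest PNx libraries were those in which Nr3c1 was above Control. The list was mixed in this. Errfi1 had 99, 56, 75, 5, 10 and 24 counts in PNx replicates 1 to 6, and Klf15 had 1, 2, 2, 3, 11 and 40. The share of all genes with the pattern of Bcl6 was not counted, so it is not read as a link. Angptl4, an inhibitor of lipoprotein lipase, reached 130 CPM in PNx replicate 6 and 39.4 CPM in replicate 6 of NaKtide, while Control lay between 1.5 and 5.11 CPM (2.78 ± 1.38, adjusted p = 0.204), as Hsd11b1 was highest in these libraries. The Angptl4 value was -1.81 without PNx replicate 6.

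Of the 16 mineralocorticoid response genes 14 were tested, with 2 higher and 0 lower at an unadjusted p under 0.05 and a median log2 fold change of 0.26. In voom the median was -0.82, with 3 called higher and 5 lower. Wnk1, a kinase of salt transport, was at 7.07 to 37.4 CPM in PNx and 6.51 to 19.0 CPM in Control (0.95 ± 0.43, edgeR adjusted p = 0.177). Scnn1a, the alpha subunit of the epithelial sodium channel, was at 0.493, 8.48, 4.04, 34.5, 41.0 and 2.26 CPM in PNx replicates 1 to 6 and at 29.5 to 43.2 CPM in Control (-1.30 ± 0.69, adjusted p = 0.227). Scnn1a was low in the same 4 libraries in which Nr3c1 was above Control. The share of all genes with such a pattern was not counted, so this is not read as a link.

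Genes with a pattern most like Ace, Agt and Nr3c1, the 3 members with a mean of at least 5 CPM, were ranked among 8046 protein-coding genes by Spearman's rho of log2 CPM over the 24 libraries, which share depth and scaling. Nearest to Ace were Manf (rho 0.92), Stk39 (0.90) and Enah (0.90). Nearest to Agt were Dync1i2 (0.89), Hsd17b4 (0.85) and C4b (0.84), and nearest to Nr3c1 were Rbm28 (0.91), Errfi1 (0.88) and Lgals1 (0.88). Without the 5 libraries that stood apart these rho values were between 0.76 and 0.88. Among the 7 genes themselves Nr3c1 went with Agt (rho 0.61), and Ace went opposite to Nr3c2 (-0.46, and -0.21 over the 19 libraries). Agtr1a was at 0 in 16 of the 24 libraries, so its rho with Nr3c1 (0.66) is not read as a link.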

How the data were processed

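Adipose RNA of 24 mice was prepared with a stranded mRNA kit and sequenced as 2 × 50 paired-end reads. The authors trimmed reads with Trimmomatic 0.38, aligned them to GRCm38 with HISAT2 2.1.0 and counted them with GenomicAlignments. The authors deposited raw counts per gene, used for all tests, and FPKM values, used for levels between genes; a table normalized with DESeq2 1.20.0 was not used. No source used here gave the annotation release or the strand setting. Groups came from the sample labels, and libraries were taken as separate mice.

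Genes with more than 10 counts over the 24 libraries (26116) were fitted with edgeR 4.0.16 (R 4.3.3; TMM, robust quasi-likelihood, 4 groups in 1 fit), with a BH-adjusted p of 0.1 over all of them. The script was tested on simulated data for PNx against Control, drawn without libraries that stand apart. At the threshold edgeR recovered 46% of 4-fold changes with 6.98% of its calls false. DESeq2 recovered 62% with 25.1% false, and voom 41% with 15.8% false. DESeq2 1.42.0, limma 3.58.1 and other scalings, filters and left-out libraries were alternatives. The members and lists were chosen with earlier results of these data known. List genes named are the 3 of lowest unadjusted p in PNx against Control with a mean of at least 5 CPM. Values of 2 listed genes are not reported here. Intervals cover counting error only. No pair of libraries in a group agreed within sampling noise. Exon overlaps came from GENCODE M21 and promoters from RefSeq.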

Additional observations from a re-analysis of the deposited data

Results flagged for a closer look

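A library was far from the other 5 of its group in 7 of 27 gene and group combinations tested by Dixon's ratio (gap to the nearest library over the range, critical value 0.625 for 6 libraries), where chance flags about 1 in 20 groups of normal values. Over all tested genes the same ratio was exceeded in 16.2% of 102485 combinations, and in 17.5% in PNx, 22.4% in NaKtide and 13.8% in PNx+NaKtide. Replicate 6 was the outlying highest library for 12.8% of all genes in PNx and for 8.79% in NaKtide. In PNx, replicate 6 was the highest for Agt at 117 CPM (next 15.4), for Nr3c1 at 34.0 CPM (next 11.7) and for Hsd11b1 at 30.6 CPM (next 0.785). In NaKtide, replicate 6 was the highest for Nr3c1 at 15.5 CPM (next 4.96) and for Hsd11b1 at 9.70 CPM (next 1.21). In PNx+NaKtide, replicate 1 was the highest for Agt at 17.2 CPM (next 6.43) and replicate 5 the lowest for Ace at 47.4 CPM (next 150). Of the 7 flagged values, 5 are in PNx replicate 6 or NaKtide replicate 6, the libraries with the highest adipocyte marker sums. The fibroblast and adipose progenitor, endothelium, erythrocyte and liver sums were also highest in these libraries.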

How the results depend on the processing

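In PNx against Control, edgeR called 0 of the 7 genes, 4 with DESeq2 size factors, 3 in DESeq2 and 3 in voom, where 0.0766%, 33.3%, 29.7% and 63.8% of all genes were called. Leaving out 1 library at a time gave 0 to 3, namely 3 without PNx replicate 4 (Ace, Agtr1a and Nr3c1, where 33.2% of all genes were called) and 1 without PNx replicate 5 (Nr3c1, 23.2%). Agtr1a, which passed the filter through PNx, is 1 of the 4, of the 3 in voom and of the 3 without PNx replicate 4, and its calls support nothing. Of the 80 other listed genes edgeR called 0, and the alternatives called 18 (DESeq2 size factors), 7 (library size scaling, 15.7% of all genes), 6 (filterByExpr, 17.9%), 21 (DESeq2), 46 (voom) and 10 (without PNx replicate 6 and NaKtide replicate 6, 21.8%), and 0 to 15 without 1 library, with 15, 14 and 6 when PNx replicate 4, 5 or 6 was left out (33.2%, 23.2% and 14.8%). In PNx+NaKtide against PNx, DESeq2 and voom called 1 of the 7 each (Agt in DESeq2, Agtr1a in voom) and 7 and 36 other listed genes, where 5.80% and 44% of all genes were called, and in the interaction voom called 16 of the latter (25.5%). For these counts the cause was not tested. TMM and DESeq2 size factors placed the median of all genes in PNx against Control at 0.36 and 0.76, and voom at -0.05.

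Several log2 fold changes turned their direction. Without PNx replicate 6 and NaKtide replicate 6, PNx against Control gave Agt -0.11, Hsd11b1 -0.82, H6pd -0.83, Hsd17b10 -0.42 and Angptl4 -1.83, while Hsd11b1 was -1.48 in NaKtide against Control, 0.38 in PNx+NaKtide against NaKtide and 1.2 in the interaction. Without PNx replicates 1, 2 and 3, Ace was -1.0, Thop1 -0.33, Ctsa 0.20 and Hsp90aa1 -0.31 in PNx against Control, and Ace was 1.58 in PNx+NaKtide against PNx. Summed counts of Ace and Gm11651, chosen after seeing the data, gave -0.87 and 0.82 in these comparisons. Gm11651 holds 54843 of the 61585 summed counts, so the sum mainly follows the Gm11651 value. Whether that value holds RNA of Ace was not tested, so the direction of Ace mRNA is not settled here. With voom, Nr3c2 was -0.17, H6pd -0.38, Hsd17b10 -1.03 and Angptl4 -3.13 in PNx against Control, Nr3c2 0.84 in PNx+NaKtide against PNx and Hsd11b1 -0.062 in NaKtide against Control. Hsd11b2 in PNx+NaKtide against PNx, 0.19 in edgeR, was -0.16 with DESeq2 size factors, -0.061 with library size scaling, -0.19 in DESeq2, and -0.031 and -0.38 on log2(FPKM + 1) and log2(FPKM + 0.1), and the latter gave Angptl4 -0.49 in PNx against Control.

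Leaving out 1 library at a time, log2 fold changes in PNx against Control ran from -0.11 to 1.58 for Agt, -0.81 to 3.38 for Hsd11b1, -0.83 to 2.27 for H6pd, -0.41 to 1.31 for Hsd17b10 and -1.81 to 3.04 for Angptl4, each lowest without PNx replicate 6. In PNx+NaKtide against PNx they ran from -0.66 to 0.068 for Nr3c2 and -0.81 to 0.45 for Hsd11b2. Hsd11b1 ran from -1.47 to 1.95 in NaKtide against Control and from -2.73 to 0.37 in PNx+NaKtide against NaKtide. Other changes of the members in the 3 remaining comparisons reversed as well: over all of them, 43 of 636 alternatives did and 0 passed the threshold.

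Replicate numbers are shared between groups, and correlations of same-numbered libraries ran from -0.59 to 0.71. In PNx+NaKtide against PNx they were 0.71, 0.63, 0.58 and 0.47 for replicates 2, 3, 5 and 6. For replicates 1 and 4 they were -0.59 and -0.53. Libraries of different numbers were not compared, so pairing was not tested. The labels do not state a pairing, and the numbers were treated as names. With the replicate block edgeR called 0 of the 7 genes in every comparison, Ace was 0.029 in PNx+NaKtide against PNx and Hsd11b1 was -0.13 in NaKtide against Control.

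Agtr1a, with 0 counts in NaKtide, has no fold in the comparisons with that group. At 20 counts for Agtr1a and Hsd11b2, small differences cannot be seen. Depth and the unknown strand setting cannot be told apart in the low counts of genes without an opposite-strand partner.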
